A study of Bos taurus with 12 samples.

Results

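The 5 genes described here make, reshape, move or use ketone bodies: ACAT1, BDH1, BDH2, OXCT1 and SLC16A1. They were chosen by symbol and matched to the Entrez gene numbers of the count files through a table of bovine RefSeq genes, and all 5 were found among the 30336 genes of the files. The rule uses no expression value of these files, but earlier results of these data were known when the members were chosen.

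The liver of 12 Holstein heifer calves was sampled by puncture biopsy at 4 d of age, and the mRNA of each biopsy was sequenced as a stranded library. The dams had eaten the same close-up diet (1.47 Mcal/kg dry matter, 15.3% crude protein) over the last 28 d of gestation. For 6 calves that diet had no added methionine (CON), and for the other 6 it carried methionine coated in ethyl cellulose, which protects it from the rumen (MET). The methionine was given to the dam only, no genotype was altered, and the calves of both diets were managed alike after birth.

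The libraries held 8277789 to 10397604 counted reads each. The counts of CON replicates 1 and 4 were apart by a chi-square per gene of 1.33, where counting noise alone gives about 1, and those of MET replicates 1 and 3 by 1.24. The other 64 pairs of libraries were apart by 25.1 to 132.9. MET replicate 5 stood apart from most libraries: 9 of its 11 pairs, at 84.9 to 132.9, were farther apart than any pair without it (82.1 at the most). The reads of each of these near-identical pairs were therefore summed, the pair was counted as 1 sample, and values are given for 5 samples per diet. Both pairs carried the same 2 second index sequences. Whether the libraries of a pair came from 1 calf, are repeat deposits of 1 library or were mixed was not tested, so that the calf behind the CON 1 and 4 values and the MET 1 and 3 values is uncertain. The labels number the libraries as replicates, and p-values measure the spread between these samples. Diet and first index sequence cannot be told apart, since all CON libraries carried the same one and all MET libraries a different one. Markers of hepatocytes were abundant, with all 8 listed genes detected and a summed level between 80140 and 143800 CPM (reads scaled to 1e6 per library with TMM factors). Of the 5 listed skeletal muscle markers ACTA1 and CKM had 0 reads, MYH1 had 1 and TNNT3 had 4 in all libraries together, and MYLPF was not analysed here.

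Ketone bodies are made in liver mitochondria when fatty acid oxidation yields more acetyl-CoA than the citric acid cycle takes up. The mitochondrial thiolase ACAT1 joins acetyl-CoA units to acetoacetyl-CoA, from which acetoacetate is formed, and BDH1 reduces acetoacetate to β-hydroxybutyrate. Both acids leave the cell through monocarboxylate carriers such as SLC16A1 (MCT1) and are burned in other tissues, where OXCT1 activates acetoacetate. In ruminants the rumen wall is a further source of β-hydroxybutyrate, but the rumen of a newborn calf is not yet functional.

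The members differed widely in level. On a scale of CPM per kilobase of exon (RPKM), the mean over the 10 samples was 248.1 for ACAT1, 15.3 for BDH2, 10.7 for SLC16A1, 1.40 for OXCT1 and 0.0307 for BDH1. The median of the 13242 genes tested was 5.12 RPKM, so that ACAT1, BDH2 and SLC16A1 were above it and OXCT1 and BDH1 below. Within each sample ACAT1 was above BDH2, by 11.8 to 21.5 times and 16.2 times in the median. SLC16A1 was above OXCT1 in all 10 samples too, by 3.6 to 13.4 times. The neighbours BDH2 and SLC16A1 were the closest. BDH2 was higher in all 10 samples, but by 1.01 times at the least and 1.3 times in the median, and their ranges over samples overlapped (11.3 to 21.1 against 4.5 to 14 RPKM).

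**Figure D1:**
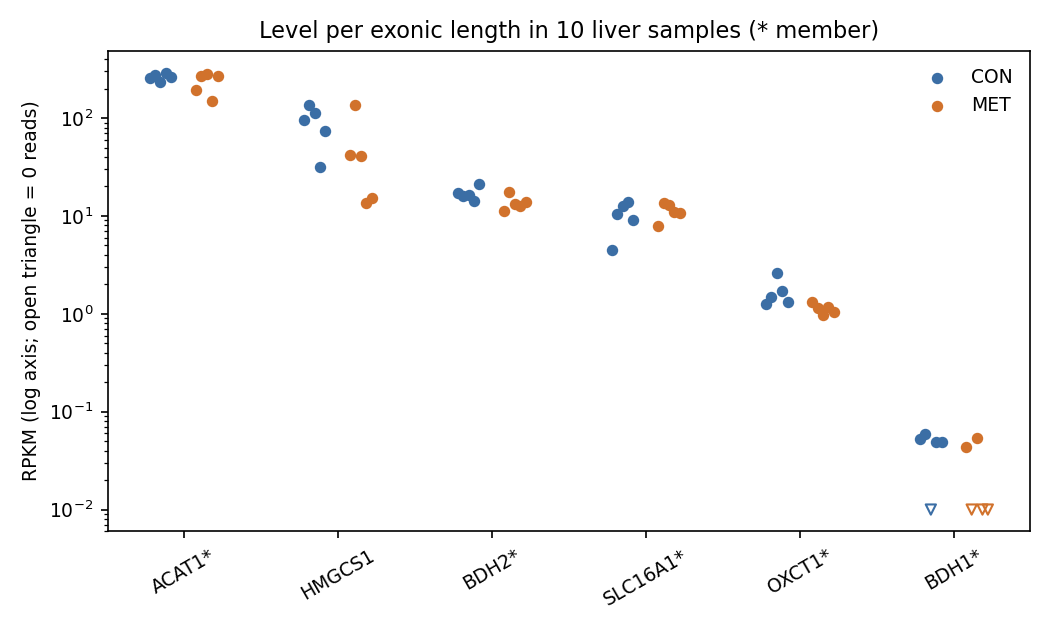
Level of each member (marked by a star) and of HMGCS1, in RPKM on a log axis, with 1 point per sample (5 CON in blue, 5 MET in orange) and open triangles for samples with 0 reads. ACAT1 lay above 100 RPKM in every sample, BDH2 and SLC16A1 side by side around 10 RPKM, OXCT1 near 1 RPKM, and BDH1 below 0.1 RPKM in every sample.

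None of the members differed between the diets at a false discovery rate (FDR) of 0.10. In edgeR's quasi-likelihood test, 0 of the 4 members tested were called, beside 0% of the 13242 genes tested, and BDH1 was below the filter on low counts. On the same samples DESeq2 called 0 of the 4, beside 4.83% of all genes, and limma voom 0 of the 4, beside 0%. At an unadjusted p of 0.05 edgeR counted 2 members, OXCT1 and BDH2, both lower in MET, beside 16.3% of all genes in either direction and 8.52% lower in MET. The diets overlapped in all 4, beside 3.72% of genes in which they did not. With the 12 libraries taken one by one, edgeR called 4.41% of genes and again 0 of the 4 members. The median log2 fold change (MET minus CON) of the 4 was -0.245, against -0.0028 over all genes tested. Of the 4, 3 were lower and 1 higher in MET, beside 6684 lower and 6558 higher of all genes tested. Without MET replicate 5 the log2 fold changes were -0.28 for BDH2, -0.060 for ACAT1, -0.55 for OXCT1 and 0.17 for SLC16A1 (edgeR FDR 0.42, 0.883, 0.352 and 0.822), and none of the 4 was below an unadjusted p of 0.05. Since liver tissue was sequenced whole, a smaller number of cells of a type and less RNA per cell cannot be told apart in any of these values.

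**Figure D2:**
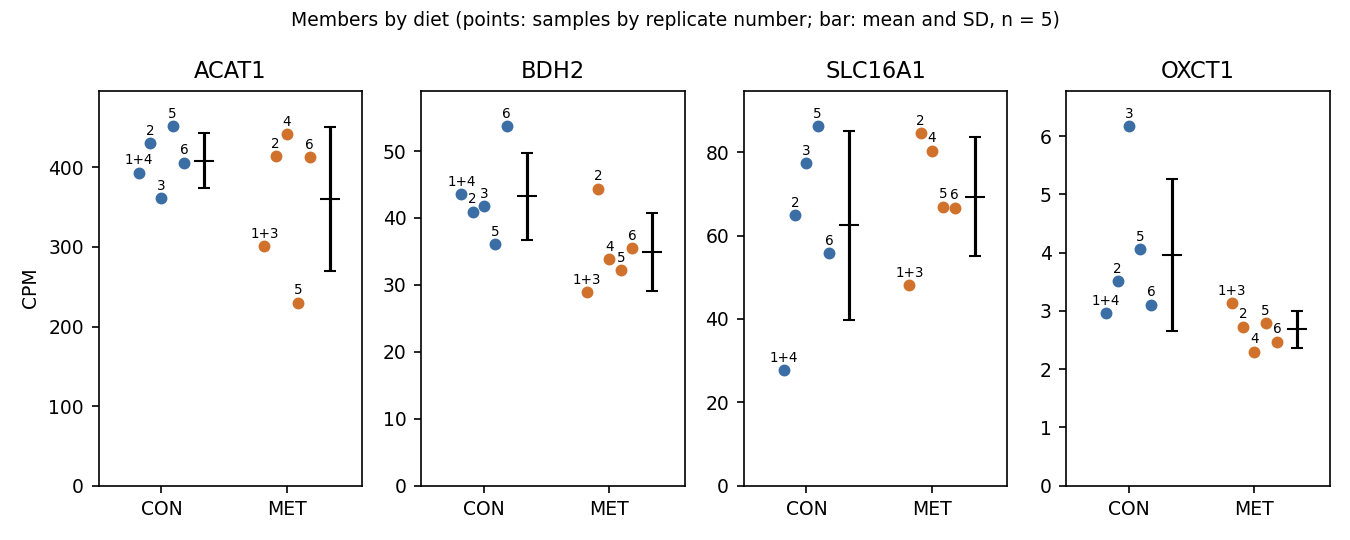
CPM of the 4 tested members in the 5 CON and 5 MET samples, with the replicate number beside each point and the mean and SD of each diet as a bar. The diets overlap in every panel, and MET 5 in ACAT1, CON 1+4 in SLC16A1 and CON 3 in OXCT1 lie farthest from their own group.

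ACAT1, which opens ketone body synthesis and also closes the breakdown of isoleucine, lies at chr15:17999932-18028987 on the plus strand (UMD 3.1.1, Entrez 511082). It was the most abundant member, with 42467 reads in all and 298th among all genes by RPKM. The CON samples held 393 CPM (replicates 1 and 4), 430 (2), 362 (3), 452 (5) and 406 (6). In MET they held 301 CPM (replicates 1 and 3), 414 (2), 441 (4), 230 (5) and 413 (6). Of the MET samples 3 stood within the CON range and 2 below it. The means were 408.5 ± 34.5 CPM in CON and 359.9 ± 90.4 in MET (SD, n = 5 each), with the larger SD in MET. The log2 fold change was -0.18 (SE 0.18, 95% interval -0.57 to 0.21, edgeR FDR 0.643), and an exact two-sided permutation test gave p = 0.325. This was the member whose value moved most without MET replicate 5, as given above.

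HMGCS1, which turns acetoacetyl-CoA to the synthesis of cholesterol in the cytosol, varied more than any member that was tested. It held 455.7 ± 203.6 CPM in CON and 252.1 ± 257.4 in MET (n = 5 each, log2 fold change -0.85, edgeR FDR 0.492), and the diets overlapped. Without MET replicate 2, its highest MET sample, the log2 fold change was -1.69 (edgeR FDR 0.21). Without MET replicate 5, its lowest sample, it was -0.61 (edgeR FDR 0.64).

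No correlation between members across the 10 samples passed the permutation test. Pearson's r of log2 CPM over the 6 pairs of the 4 members lay between -0.125 and 0.47. The highest was that of BDH2 with ACAT1 (r 0.47, permutation p = 0.179, adjusted over the 6 pairs 0.87), with a Spearman's rho of 0.2 (permutation p = 0.581, adjusted 0.947). This r was 0.39 without the 2 samples farthest from the median of BDH2 and 0.321 after centring within each diet.

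MET replicate 5 was the lowest of the 10 samples in 10 of the 26 tested genes of the pathway lists, ACAT1 among the 10. It was the lowest in 9.69% of all genes tested. ACAT1 was at 0.562 times the median there. The other 9 lay between 0.245 times (HMGCS1) and 0.815 times (ECHS1), and were HADHA, HADHB, ACAA2 and HADH of fatty acid oxidation, the cytosolic thiolase ACAT2, the transporter partner BSG and the mitochondrial deacylase SIRT3, beside HMGCS1 and ECHS1. The other members did not share that place: BDH2 was at 0.838, OXCT1 at 0.925 and SLC16A1 at 1.0 times the median in that sample. This sample had the lowest summed level of hepatocyte markers, 80140 CPM, and of cholangiocyte markers, 30.5 CPM, and the highest of T and NK cell markers, 30.9 CPM. Its 10 most abundant genes took 30.1% of its reads, the highest share (20.6 to 30.1% over the 12 libraries). The part of these in the low ACAT1 of MET replicate 5 was not tested. By ranks over all genes its mean Spearman correlation with the other samples was 0.959, within the range of the 10 samples (0.953 to 0.967), although by counts it was the library farthest from most others.

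**Figure D3:**
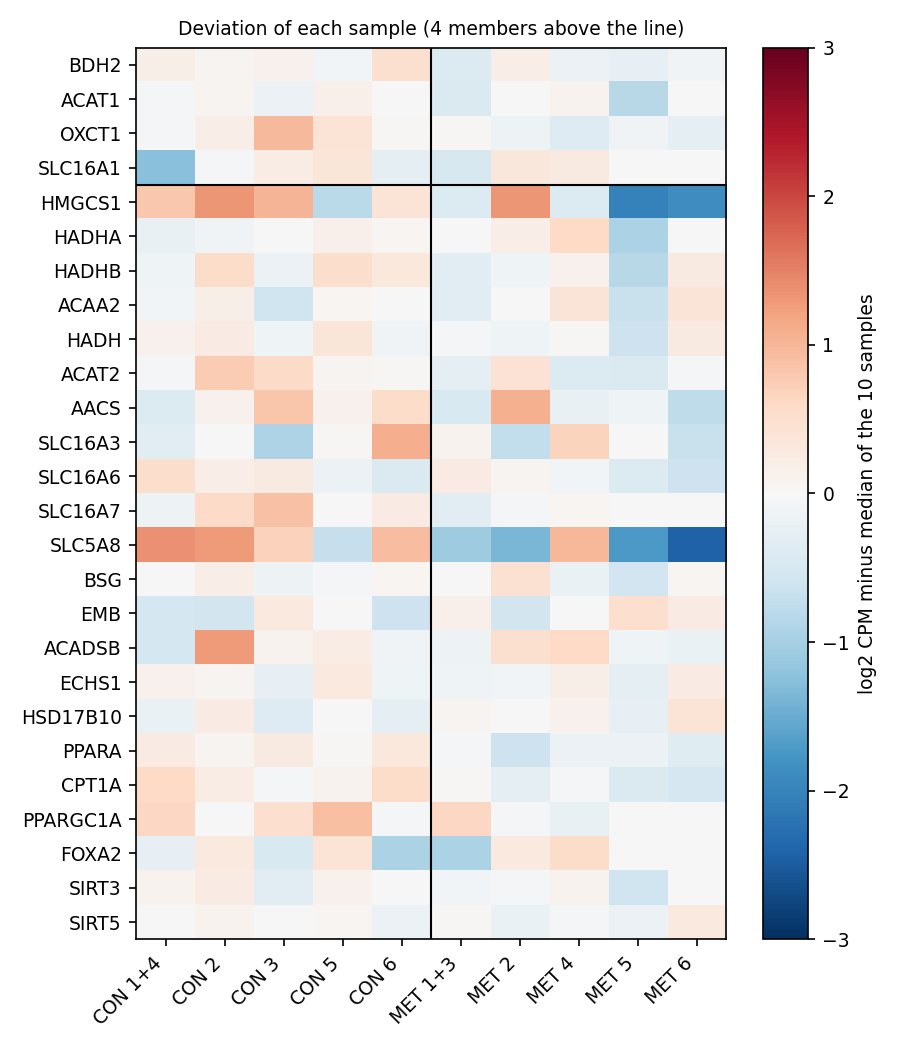
Difference of log2 CPM from the median of the 10 samples for the 26 tested genes of the lists, members above the horizontal line and CON samples left of the vertical line. The column of MET 5 holds the lowest value in 10 genes, ACAT1 and HMGCS1 among them, whereas BDH2, OXCT1 and SLC16A1 have their lowest values in other samples.

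BDH1, the enzyme that sets the balance of acetoacetate and β-hydroxybutyrate in mitochondria, was at the limit of detection. The gene lies at chr1:72572747-72608970 on the minus strand (UMD 3.1.1, Entrez 534090), with 2131 bases of exon. Only 8 reads fell on it in the 12 libraries together, 5 in CON and 3 in MET. In CON replicates 1 to 6 it had 0, 1, 0, 2, 1 and 1 reads. In MET replicates 1 to 6 it had 0, 0, 2, 1, 0 and 0 reads. A read was thus present in 6 of the 12 libraries, and no library held more than 2. Pooled over all libraries this was 0.0710 CPM, with an exact Poisson 95% interval of 0.0306 to 0.140 that covers counting error only. A floor of 3 reads, at 0.289 to 0.362 CPM, was reached in no library, so that no fold change is given and a difference between the diets was not detectable in these counts. The reads were counted within the exons of the UMD 3.1.1 annotation, and no other gene shared those exons on either strand. Whether these exons hold the whole transcript, its 3′ end included, was not tested, so that the low count need not be the level of the mRNA.

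BDH2, a cytosolic relative assigned to the oxidation of β-hydroxybutyrate and also described as an enzyme of siderophore synthesis, was far above BDH1. It lies at chr6:23046981-23078620 on the plus strand (UMD 3.1.1, Entrez 515321) and had 288 to 518 reads per library. The CON samples held 43.5 CPM (replicates 1 and 4), 40.9 (2), 41.8 (3), 36.1 (5) and 53.7 (6). In MET they held 28.9 CPM (replicates 1 and 3), 44.4 (2), 33.8 (4), 32.2 (5) and 35.5 (6). Of the MET samples 4 were below every CON sample, and MET replicate 2 was above all but CON replicate 6. The means were 43.2 ± 6.47 CPM in CON and 35.0 ± 5.81 in MET (SD, n = 5 each). The log2 fold change was -0.31 (SE 0.14, 95% interval -0.61 to -0.0026, edgeR unadjusted p = 0.0484, FDR 0.302), and the exact permutation test over 10 samples gave p = 0.0714. The 12 libraries taken singly count each near-identical pair as 2 samples. There the log2 fold change was -0.35 (edgeR FDR 0.141, exact permutation p = 0.0195). DESeq2 on these libraries gave an FDR of 0.0989, the 1 setting in which a member was called, beside 9.95% of all genes. With the pairs summed, the log2 fold change was -0.22 without CON replicate 6 (edgeR unadjusted p = 0.137). Without MET replicate 2 it was -0.41 (edgeR unadjusted p = 0.011). Scaling the 10 samples by library size alone gave -0.28 (edgeR unadjusted p = 0.136, exact permutation p = 0.143).

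OXCT1, which hands coenzyme A to acetoacetate and so opens the use of ketone bodies, is classically described as missing from hepatocytes. It lies at chr20:32683996-32848726 on the plus strand (UMD 3.1.1, Entrez 535804). It was low but present in every library, with 20 to 54 reads each and 368 in all. The CON samples held 2.97 CPM (replicates 1 and 4), 3.52 (2), 6.17 (3), 4.06 (5) and 3.11 (6). In MET they held 3.14 CPM (replicates 1 and 3), 2.73 (2), 2.30 (4), 2.80 (5) and 2.47 (6). Of the MET samples 4 were below every CON sample, and the fifth was above 2 of them. The means were 3.96 ± 1.3 CPM in CON and 2.69 ± 0.321 in MET (SD, n = 5 each). The log2 fold change was -0.54 (SE 0.23, 95% interval -1.04 to -0.036, edgeR unadjusted p = 0.0377, FDR 0.282), and the exact permutation test gave p = 0.0238. Without CON replicate 3, the highest sample, the log2 fold change was -0.33, and over the 12 libraries the exact permutation p was 0.0693.

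Cells other than hepatocytes can hold OXCT1, and their markers were read in the same samples. The 6 stellate cell and fibroblast markers were all lower in MET by fitted fold change, and summed to 607.3 to 894.8 CPM in CON and 449.4 to 744.4 CPM in MET (exact permutation p = 0.0873). Of the 6 endothelial markers 4 were lower in MET (239.5 to 402.0 CPM in CON, 217.7 to 342.7 in MET, exact permutation p = 0.18). Of the 8 hepatocyte markers 7 were lower in MET (96340 to 143800 CPM in CON, 80140 to 115900 in MET, exact permutation p = 0.0317). The 7 Kupffer cell and macrophage markers were all higher in MET by fitted fold change. They summed to 1012 to 1424 CPM in CON and 1199 to 1633 in MET (exact permutation p = 0.0873). All 4 tested cholangiocyte markers were lower (50.7 to 78.0 CPM in CON, 30.5 to 67.8 in MET, exact permutation p = 0.19). All 5 T and NK cell markers were higher in MET (16.9 to 24.1 CPM in CON, 15.4 to 30.9 in MET, exact permutation p = 0.103). Erythroid markers summed to 1.34 to 27.0 CPM in CON and 3.24 to 23.5 in MET (exact permutation p = 0.698). None of these markers passed FDR 0.10 in edgeR over the 10 samples. Over the 12 libraries 3 did, APOB of hepatocytes (FDR 0.0859, lower in MET, diets not overlapping), C1QB of macrophages (0.0855, higher) and CFTR of cholangiocytes (0.0889, lower), beside 4.41% of all genes called there and 1.8% with every MET sample below every CON sample. For all of these markers their part in the OXCT1 and BDH2 values was not tested. OXCT2, the testis form of the enzyme, was below the filter on low counts.

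SLC16A1 carries lactate, pyruvate and ketone bodies across the cell membrane together with a proton. It lies at chr3:30533845-30566204 on the plus strand (UMD 3.1.1, Entrez 505775), with 6160 bases of exon, the most of the members. The CON samples held 27.8 CPM (replicates 1 and 4), 64.9 (2), 77.4 (3), 86.2 (5) and 55.9 (6). In MET they held 48.2 CPM (replicates 1 and 3), 84.5 (2), 80.4 (4), 67.0 (5) and 66.7 (6). CON held both the lowest and the highest sample, and all 5 MET samples lay between them. CON replicates 1 and 4 held 28.8 and 26.6 CPM when read singly. As a near-identical pair they count as 1 sample, so that this is not an independent repeat of the low value. The means were 62.4 ± 22.6 CPM in CON and 69.4 ± 14.3 in MET (SD, n = 5 each). The log2 fold change was 0.15 (SE 0.26, 95% interval -0.41 to 0.72, edgeR FDR 0.807), and the exact permutation test gave p = 0.571. This direction rested on CON replicates 1 and 4, without which the log2 fold change was -0.036.

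Of the 27 other genes of the pathway lists 22 were tested, and 0 passed FDR 0.10 in edgeR over the 10 samples, beside 4 at an unadjusted p of 0.05, all lower in MET. Over all genes 16.3% were at that p in either direction and 8.52% lower in MET. The median log2 fold change of the 22 was -0.172, with 17 lower and 5 higher, beside 6684 lower and 6558 higher of all genes tested. The 6 genes around acetoacetyl-CoA and the last steps of β-oxidation (4 lower, 2 higher) and the 3 of isoleucine breakdown beside ACAT1 (2 lower, 1 higher) held none of the 4. Among 6 tested genes of monocarboxylate transport the 4 included SLC5A8 and SLC16A7, named after their values were seen. SLC5A8, a sodium-coupled carrier, was close to its floor, with 0 to 23 reads per library (1.57 ± 0.745 CPM in CON and 0.463 ± 0.713 in MET, n = 5 each, edgeR unadjusted p = 0.0239). MET replicate 4 held 15 of its MET reads, and the other MET libraries 0 to 3 each. Without that sample the fitted log2 fold change of SLC5A8 went from -1.87 to -3.15 (edgeR FDR 0.242). Without MET replicate 5 it was -1.66 (edgeR unadjusted p = 0.053). Without CON replicates 1 and 4 it was -1.66 too (edgeR unadjusted p = 0.0624). For SLC16A7 (MCT2), a carrier with high affinity for pyruvate, the means were 61.6 ± 18.8 CPM in CON and 46.2 ± 4.41 in MET (n = 5 each, edgeR unadjusted p = 0.0452, exact permutation p = 0.103). Its log2 fold change went from -0.41 to -0.24 without CON replicate 3 (edgeR unadjusted p = 0.145).

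The other 2 of the 4 were PPARA, the fatty acid receptor that switches on ketogenic genes in fasting, and CPT1A, which admits long-chain fatty acids to mitochondria. PPARA held 18.6, 16.6, 18.8, 15.9 and 19.6 CPM in CON and 15.4, 10.1, 13.9, 13.9 and 12.2 CPM in MET. It was the 1 gene of the 22 whose diets did not overlap, beside 1.8% of all genes with every MET sample below every CON sample. The log2 fold change of PPARA was -0.45 (SE 0.13, edgeR FDR 0.178), and the exact permutation p of 0.00794 was the smallest that 5 against 5 samples can give. CPT1A held 349.7, 271.8, 224.4, 248.8 and 338.5 CPM in CON, and 238.0, 189.2, 222.1, 170.6 and 162.6 CPM in MET. Its log2 fold change was -0.54 (edgeR FDR 0.183). Both were below FDR 0.10 over the 12 libraries (0.0849 for PPARA and 0.0846 for CPT1A), beside 2.32% of all genes called and lower in MET. DESeq2 called both over the 10 samples (FDR 0.0766 for PPARA and 0.0493 for CPT1A), beside 4.83% of all genes. With the length trend removed over the 12 libraries neither was called (0.187 and 0.192). The study listed both as changed on these same libraries, so that they are not independent evidence of a direction. The 5 listed genes that were not tested, OXCT2 and FGF21 among them, were below the filter on low counts.

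**Figure D4:**
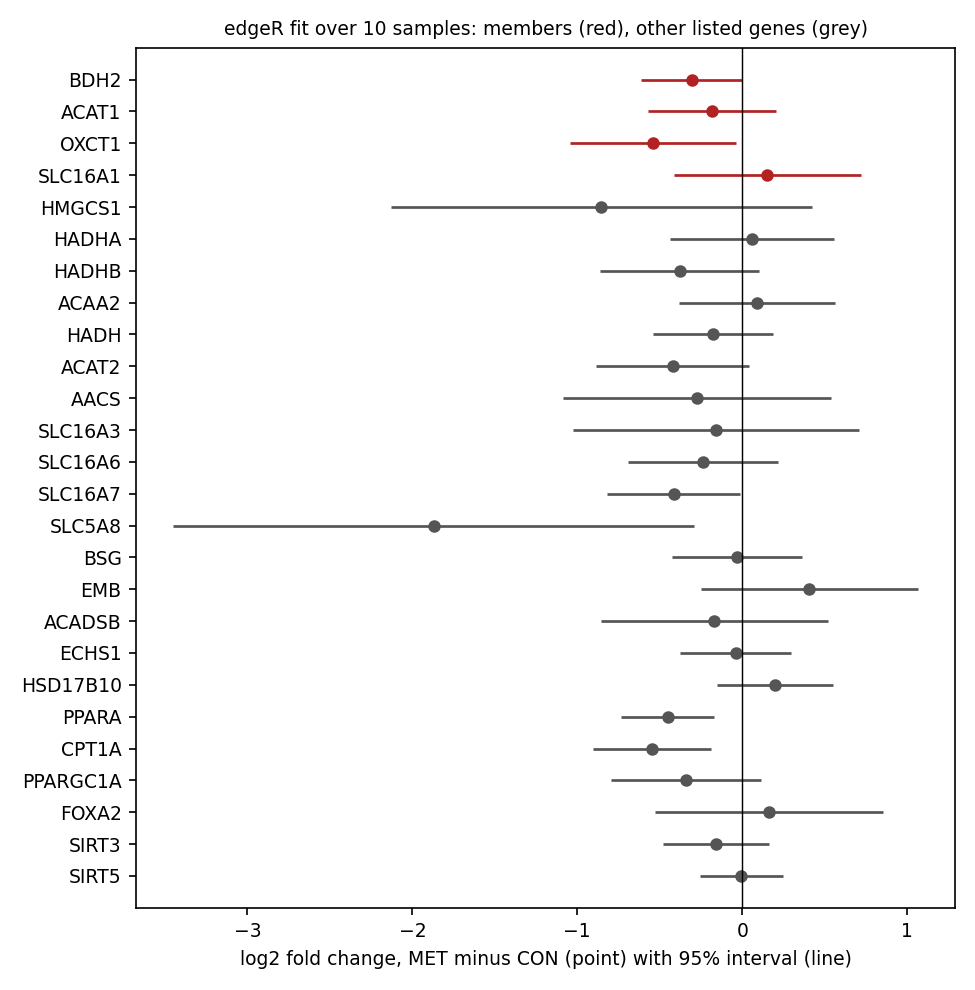
Log2 fold change (MET minus CON) with its 95% interval in edgeR over the 10 samples, for the 4 tested members (red) and the 22 other tested genes of the lists (grey). The intervals of OXCT1 and BDH2 end just below 0, those of ACAT1 and SLC16A1 span it, and no gene shown passed FDR 0.10.

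The genes whose levels followed each member most closely over the 10 samples were taken from the 12020 tested genes with a symbol, as a description. For ACAT1 these were GSTA1 (Pearson's r 0.965), a glutathione transferase, HSDL2 (0.936), a peroxisomal dehydrogenase-like protein, and GPI (0.917), an enzyme of glycolysis. Spearman's rho was lower for each of them, at 0.794, 0.733 and 0.806 in that order. For BDH2 they were GKAP1 (0.93) and IFT80 (0.861), a protein of cilia, among others. For OXCT1 they were FER (0.937), a tyrosine kinase, MYLK (0.93), the myosin light chain kinase, and EFR3A (0.924). For SLC16A1 they were SYNJ2BP (0.915), STRAP (0.913) and ANKRD9 (0.912). None of these genes passed FDR 0.10 between the diets in edgeR over the 10 samples. Over the nearest genes of all members, rho lay between 0.733 (HSDL2 with ACAT1) and 0.952 (SYNJ2BP with SLC16A1). The points of each correlation share the same libraries and scaling.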

How the data were processed

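Liver mRNA of 12 calves was sequenced from one end on 1 lane. Reads were mapped by the authors (STAR 2.5.3a, assembly UMD 3.1.1), who deposited raw counts of reads per gene and library, made with featureCounts of Subread 1.5.2 in reversely stranded mode without multi-mapping or multi-overlapping reads. Each file holds 1 library, and coordinates, exons and lengths come from the file itself. Reads per library were 8277789 to 10397604. The reads carry no molecular identifiers and may repeat a molecule, so that floors and intervals reflect counting error alone.

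Symbols came from a RefSeq gene table of the later assembly ARS-UCD2.0, used for names only, which named 25105 of 30336 genes. The labels gave diet and replicate. Counts were summed within CON replicates 1 and 4 and within MET replicates 1 and 3, filtered with edgeR 4.0.16 (minimum count 10, minimum total 15), scaled by TMM and tested by quasi-likelihood on diet alone in R 4.3.3, with Benjamini-Hochberg adjustment over all 13242 genes tested and an FDR threshold of 0.10. The 12 libraries (13212 genes) were fitted beside this. RPKM is TMM-scaled CPM per kilobase of exon. For single values an exact two-sided permutation test was run on mean log2 CPM (prior count 2) over 252 arrangements, or 924 for 12 libraries, and correlations were tested with 100000 permutations. Members and lists were chosen with earlier results of these data known. Values were given for the members, for listed genes past FDR 0.10 in either fit or with diets not overlapping, for HMGCS1, for listed genes the study reported as changed, and for the 3 genes nearest to each member by r. SLC5A8 and SLC16A7 lay outside this rule and were added for their unadjusted p after their values were seen. Not all genes the rule chose are reported here. Alternatives were other normalizations, filters and gene length correction, DESeq2 1.42.0, limma 3.58.1 (voom), robust estimation, single libraries of each pair, a replicate block and leaving out each sample. DESeq2 and the length correction over 12 libraries were added after the data were seen. The scripts were tested on simulated data.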

Additional observations from a re-analysis of the deposited data

Results flagged for a closer look

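Of 16 groups of 5 samples (8 genes, each in CON and in MET), 2 held a sample far from the others, and chance gives about 1 in 20 such groups. HMGCS1, the cytosolic HMG-CoA synthase of the cholesterol branch, was at 695.7 CPM in MET replicate 2, and the other MET samples were between 68.1 and 210.7 CPM. The gap to the nearest sample was 0.773 of the whole range, above the critical value of 0.71. BDH1 was at 0 CPM in CON replicate 3, and the other CON samples were between 0.104 and 0.126 CPM, a gap of 0.825 of the range that amounts to 1 read. The other 4 members had no such sample.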

How the results depend on the processing

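Under 25 alternatives, direction and side of FDR 0.10 were kept in 24 for BDH2, 25 for ACAT1, 24 for SLC16A1 and all 24 that could be run for OXCT1, which falls below a minimum count of 30. BDH1 had no tested value. The exceptions were BDH2 with DESeq2 over 12 libraries (log2 fold change -0.35, FDR 0.0989, and so 1 member called) and SLC16A1 without CON replicates 1 and 4 (-0.036). In 19 of the 25 alternatives no gene at all passed FDR 0.10, so that only the direction of a member could differ there. Leaving out each sample gave -0.41 to -0.22 for BDH2, -0.27 to -0.060 for ACAT1 (the latter without MET replicate 5), -0.64 to -0.33 for OXCT1 (the latter without CON replicate 3) and -0.036 to 0.30 for SLC16A1 (the latter without CON replicate 5). Other settings moved 2 members by over 1.5 times: ACAT1 was -0.31 with the length trend removed over 12 libraries, and SLC16A1 was 0.27 with that trend removed, 0.32 with it removed over 12 libraries and 0.31 with the replicate block. SLC16A1 moved by as much without CON replicate 3 (0.24), MET replicates 1 and 3 (0.26), MET replicate 2 (0.072) or MET replicate 4 (0.095). The exact permutation p of BDH2 was 0.0195 over 12 libraries and 0.143 with scaling by library size alone. That of OXCT1 was 0.0693 over 12 libraries and 0.0635 with that scaling.

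Genes at FDR 0.10 numbered 0 over the 10 samples (2165 at an unadjusted p of 0.05), 639 with DESeq2, 583 over the 12 libraries, 1314 with DESeq2 over these, 56 with the length trend removed over these, and 0 to 39 without each sample (39 without MET replicates 1 and 3). The cause of these differences was not tested, beyond the 12 libraries counting each near-identical pair as 2 samples. The replicate numbers did not pair the libraries (correlations of same-numbered deviations -0.189 to 0.16, 1 of 6 over 0.1), and no CON library correlated best with its own number. A replicate block over 12 libraries called 6 genes and changed no call of a member. PPARA and CPT1A were below FDR 0.10 in 3 of 25 alternatives each (12 libraries, DESeq2, and DESeq2 over 12 libraries). BDH1 and OXCT1 had the fewest reads, 8 and 368 in all, and for BDH1 the coverage of its gene model was not tested.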
